A study of Mus musculus with 15 samples.

Results

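The 38 genes described here encode the proteins that carry the signal of the B cell receptor, from its membrane chains to the transcription factors it activates. They were chosen by name as members of that pathway, with earlier results of these data known, and are 38 of the 16438 genes that carry a symbol on the array. Of them, 35 were found by symbol and 2, Bank1 and Itpr2, by an older symbol. Rasgrp3 has no symbol in the deposited annotation and was found through its list of common names. A further 24 probe sets were tied to members by the common name alone, which gave 117 probe sets for the 38 genes among the 45101 on the array.

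Antigen binding brings the receptor, an immunoglobulin paired with the chains Ig-alpha and Ig-beta, to Src family kinases, which phosphorylate those chains and recruit Syk. Syk and Btk act through the adaptor Blnk on the phospholipase Plcg2, whose products release calcium through inositol trisphosphate receptors and activate protein kinase C and the Ras exchange factors of the Rasgrp family. A separate branch recruits PI3K through membrane adaptors such as Pik3ap1. In memory B cells the pathway is studied because these cells respond faster to antigen than naive cells do.

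The groups come from 2 screens that compared sorted spleen B cells of mice specific for the hapten NP, and every donor carried the mVh186.2 heavy chain transgene. The first screen had 3 naive arrays, lettered A, B and C, and 4 memory arrays, lettered D, E, F and G, all from mVh186.2 transgenic mice; cells were sorted on a FACSVantage SE and RNA was labeled with EnzoBio reagents. In the second screen 4 arrays (A to D) held naive cells negative for AA4.1, a marker of immature B cells, from mVh186.2 transgenic Jk KO mice. The 4 memory arrays of that screen (EK, FG, HJ and I) held cells formed in AM14/Vk8R transgenic recipients after adoptive transfer of mVh186.2 Tg splenocytes. Both groups of the second screen were sorted on a FACSAria and labeled with the MessageAmp kit. The labels name Jk KO for the naive cells only and the recipients for the memory cells only, so cell state, genotype and host cannot be told apart in the second screen. The labels call the replicates biological and do not say whether the double letters mark pooled mice. Ages and the time after immunization are not given in the sources used here. All values below are log2(intensity + 1), called levels, and a change is the mean memory level minus the mean naive level. Levels are not compared between genes or between screens, because probe sets differ in brightness and the summarization of the first screen is not known.

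The 2 screens differ in precision, where the median standard error of a change over all genes tested was 0.26 log2 (first) and 0.09 log2 (second). Within each group of the second screen the arrays correlated at 0.989 to 0.995 over kept probe sets. In the first screen naive array C and memory array G stood apart: their correlations with the other arrays of their group were 0.875 to 0.887, against 0.939 to 0.966 among the others. They departed in the same direction. Over the 94 kept probe sets of the receptor signaling genes, the deviation of C from naive A and B and that of G from memory D, E and F correlated at 0.79, against 0.48 over all 23813 kept probe sets, and on 16 of the 94 (17%, against 6.06% of all) both arrays lay more than 1 log2 above the rest. Among the 38 probe sets used for the genes this held for 1 (2.63%). Results of the first screen are given with and without these arrays where the call differs.

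Markers of B cells were measured in both screens: all 10 listed (among them Ms4a1, Cd74, Cd22 and Ebf1) passed the filter on dim probe sets. Pou2af1 was the only one with an adjusted p under 0.05, lower in memory cells of the second screen (-0.34 ± 0.05, SE). Pax5 was lower in the first screen without a call (-2.1 ± 0.75, adjusted p = 0.357), with memory G inside the naive range. Markers of other cells moved between the groups of the second screen. Of 11 tested T cell markers 8 were lower in memory cells, while Cd4, Cd8a and Cd247 were not called. The summed linear intensity of all 13 T cell markers on the array was 1360 to 1980 on naive and 961 to 1150 on memory arrays. All 4 tested NK cell markers were lower, and the 7 on the array summed to 584 to 941 on naive and 159 to 271 on memory arrays. Among these lower markers Cd5, Cd28 and Nkg7 passed the filter through naive arrays alone, with every memory array below its median of 4.73. For Cd3g only memory HJ lay above that median among the memory arrays. Among 3 tested dendritic cell markers Flt3 and Ccr7 were lower. Of 8 tested myeloid markers Cd68 was higher (0.89 ± 0.2). S100a8 (1.52 ± 0.56) and S100a9 (1.58 ± 0.56) were not called, with naive D within the memory range, and the others changed by -0.07 to 0.22 without a call. The 11 myeloid markers on the array summed to 18100 to 26600 on naive and 19900 to 25200 on memory arrays. Of 4 tested erythroid markers Car2 was lower (-2.24 ± 0.31). Of 6 tested plasma cell markers Jchain was higher (3.36 ± 0.42), and the other 5 had changes of 0 to 0.16 without a call. The 7 plasma cell markers on the array summed to 5300 to 7860 on naive and 14800 to 16700 on memory arrays. In the first screen only 5 of 14 T cell and 2 of 7 NK cell markers passed the filter and none of these was called. None of 9 tested myeloid markers was called there either, but for 5 of them all memory arrays lay above all naive arrays at an unadjusted p under 0.05: S100a8 (3.34 ± 0.79), S100a9 (2.87 ± 0.69), Lyz2 (1.45 ± 0.3), Cd68 (1.04 ± 0.22) and Mpo (0.82 ± 0.35). Csf1r, Adgre1, Csf3r and Ctss changed by -0.11 to 0.04. The 11 myeloid markers on the array summed to 25200 to 26800 on naive and 24300 to 32600 on memory arrays there. For the erythroid markers Alas2 (3.6 ± 0.8) and Hba-a1 (1.8 ± 0.5) all memory arrays also lay above all naive arrays at an unadjusted p under 0.05, without a call. Epor gave 0.17 ± 0.25 and Car2 was called lower (-1.15 ± 0.19). The 5 erythroid markers on the array summed to 4260 to 8200 on naive and 8180 to 30900 on memory arrays of the first screen. Jchain (3.46 ± 0.32) and Fkbp11 (1.23 ± 0.23) were called higher among 5 tested plasma cell markers, and none of 5 dendritic cell markers was called. Fyn, Itpr1 and Rasgrp1 are also expressed by T cells; the part of other cells in their values was not tested. In bulk samples such as these, fewer cells of a type and less RNA per cell cannot be told apart.

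The promoters of 5 genes with large changes are shown here because the values below turn on these genes. The table of RefSeq promoters used here (GRCm38.p6) holds 31 of the 38 genes, and Itpr1 and Malt1, which also changed by more than 0.5 log2, are among those not shown. Printed 5′ to 3′ are the 300 bases around the first listed start of the called genes that changed by more than 0.5 log2 in the second screen and are in that table. Capitals mark matches, on either strand, to motifs of B lineage factors: CAGGTG, the E-box core bound by E2A, ATGCAAAT, the octamer bound by Oct1 and Oct2, TCCCNNGGGA, the palindrome bound by EBF1, and GAGGAAGT, the ETS core bound by PU.1. Each window held 1 match, so no motif overlapped another. Pik3ap1 lies at chr19:41385053-41385352 on the minus strand, Pik3cg at chr12:32208610-32208909 on the minus strand, Vav3 at chr3:109340433-109340732 on the plus strand, Rasgrp1 at chr2:117342828-117343127 on the minus strand and Rasgrp3 at chr17:75435655-75435954 on the plus strand.
Pik3ap1: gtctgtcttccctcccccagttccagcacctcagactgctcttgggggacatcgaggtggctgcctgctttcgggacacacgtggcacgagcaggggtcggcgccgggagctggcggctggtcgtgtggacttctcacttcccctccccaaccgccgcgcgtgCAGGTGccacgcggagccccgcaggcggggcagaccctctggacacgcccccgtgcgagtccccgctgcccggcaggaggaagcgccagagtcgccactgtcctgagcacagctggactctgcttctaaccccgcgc
Pik3cg: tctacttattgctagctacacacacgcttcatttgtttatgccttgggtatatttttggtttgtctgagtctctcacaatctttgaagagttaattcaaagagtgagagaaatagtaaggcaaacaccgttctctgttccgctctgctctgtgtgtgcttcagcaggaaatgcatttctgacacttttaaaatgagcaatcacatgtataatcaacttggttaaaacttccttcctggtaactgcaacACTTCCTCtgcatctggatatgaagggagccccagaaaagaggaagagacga
Vav3: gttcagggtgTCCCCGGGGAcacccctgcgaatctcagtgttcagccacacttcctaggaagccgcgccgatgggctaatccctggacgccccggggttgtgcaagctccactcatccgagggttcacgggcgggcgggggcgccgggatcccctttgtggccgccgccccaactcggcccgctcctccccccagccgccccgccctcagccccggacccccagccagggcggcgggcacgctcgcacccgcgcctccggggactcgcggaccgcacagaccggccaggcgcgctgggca
Rasgrp1: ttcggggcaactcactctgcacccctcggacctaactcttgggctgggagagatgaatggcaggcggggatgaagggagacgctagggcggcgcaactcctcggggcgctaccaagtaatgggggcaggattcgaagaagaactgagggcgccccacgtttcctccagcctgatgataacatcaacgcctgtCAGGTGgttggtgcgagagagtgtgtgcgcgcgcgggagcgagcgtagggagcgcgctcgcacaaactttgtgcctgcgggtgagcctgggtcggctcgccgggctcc
Rasgrp3: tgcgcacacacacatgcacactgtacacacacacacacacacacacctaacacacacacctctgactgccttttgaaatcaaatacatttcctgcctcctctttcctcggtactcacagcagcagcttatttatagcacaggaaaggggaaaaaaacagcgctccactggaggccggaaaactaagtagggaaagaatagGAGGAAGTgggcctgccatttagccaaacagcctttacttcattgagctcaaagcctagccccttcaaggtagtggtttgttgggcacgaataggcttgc
The E-box core stands in the windows of Pik3ap1 (bases 164 to 169) and Rasgrp1 (bases 193 to 198), the ETS core in those of Pik3cg (bases 249 to 256, as its reverse complement) and Rasgrp3 (bases 201 to 208), and the EBF1 palindrome in that of Vav3 (bases 11 to 20). Over all 32851 listed promoters the E-box core was found in 20.2%, the octamer in 1.74%, the palindrome in 0.904% and the ETS core in 3.2%. Of the 31 receptor signaling genes with a promoter, 13 held the E-box core, 2 the octamer (Blnk and Prkcb), 1 the palindrome and 4 the ETS core (also Grb2 and Vav1). A gene counted here if any of its listed promoters matched, whereas the shares above are of single promoters, so counts and shares cannot be compared directly. Genes that rose and genes that fell both held the E-box core.

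In the second screen 14 of the 38 genes passed an adjusted p of 0.05, against 26.6% of all 14657 genes and probe sets tested. The 9 that were lower in memory cells were Vav3, Pik3ap1, Rasgrp3, Pik3cg, Blnk, Bcl10, Lyn, Btk and Itpr2, against 16% of all tested. The 5 that were higher were Itpr1, Rasgrp1, Malt1, Stim1 and Ppp3ca, against 10.5% of all tested. Under quantile normalization 8 were lower and 7 higher, where 25.8% of all tested were called in either direction. The median change of the 38 was -0.01, and that of all tested was -0.02. Memory arrays lay wholly below naive arrays for 8 of the genes (17.4% of all tested) and wholly above them for 7 (12% of all), and 20 of the 38 changes were below 0, where 54.7% of all were. No test set the list against all genes, and its counts are not read as particular to it.

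**Figure D1:**
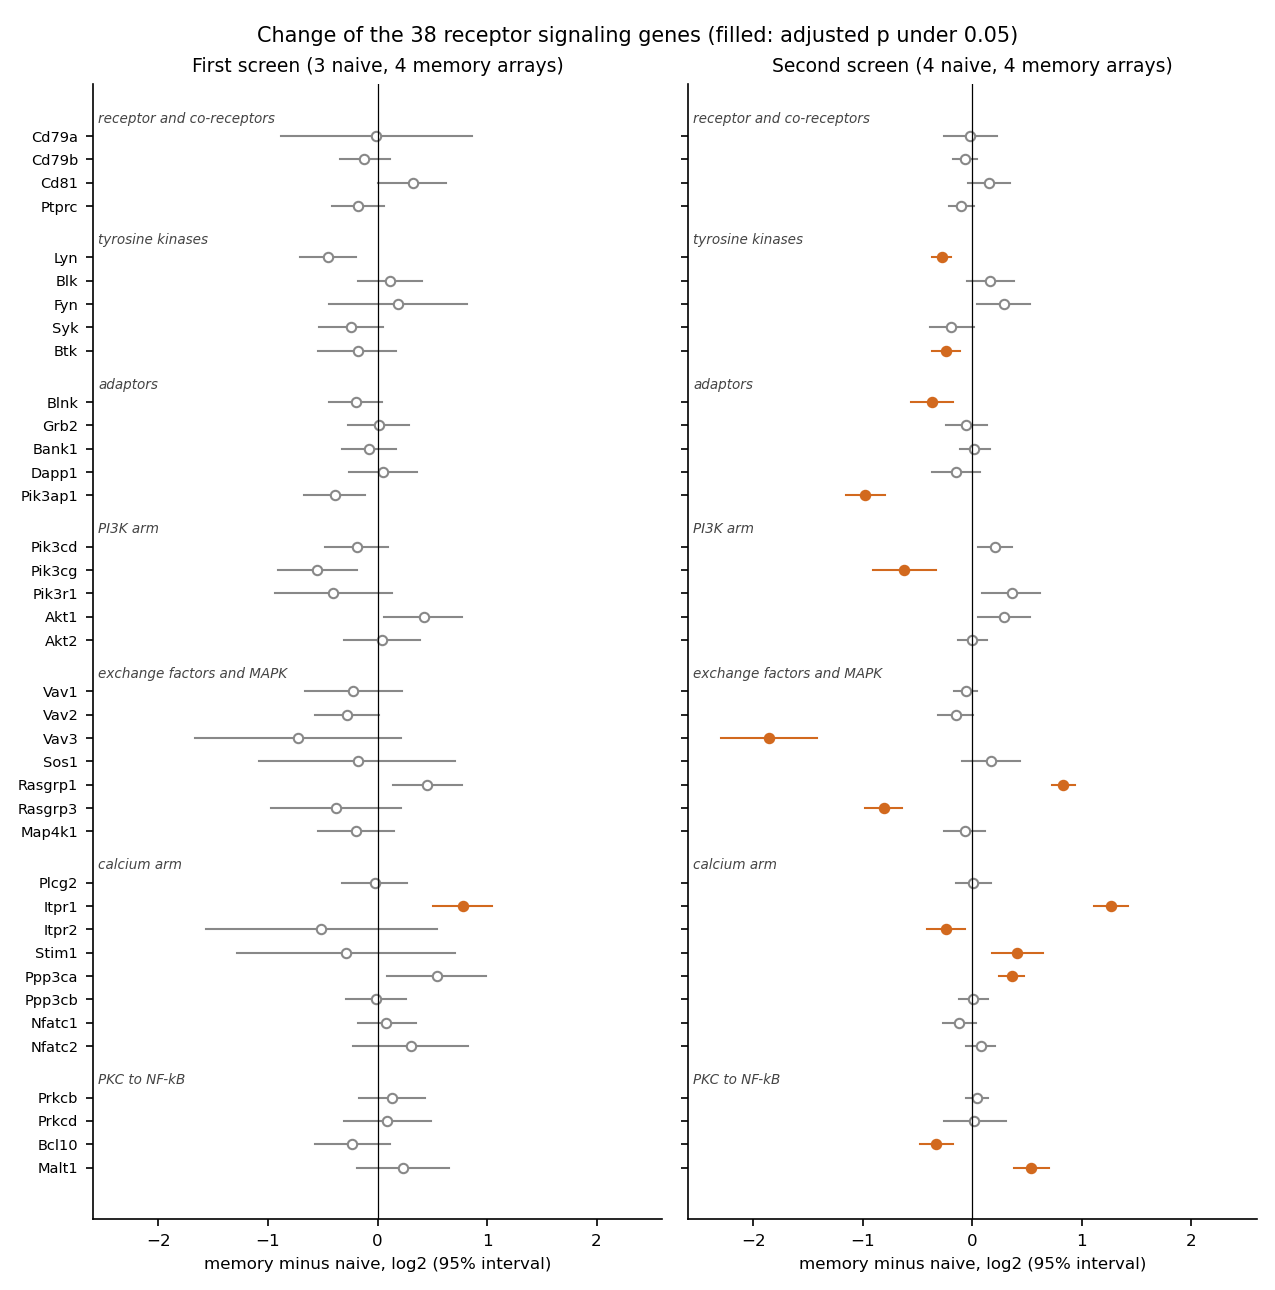
Change of each of the 38 genes, in log2 units (memory minus naive) with its 95% interval; the left panel is the first screen and the right panel the second, grouped by arm of the pathway. Filled points have an adjusted p under 0.05: 1 gene, Itpr1, on the left and 14 on the right, where Vav3 lies lowest at -1.86 and Itpr1 highest at 1.27.

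In the first screen 1 of the 38 genes, Itpr1, passed the adjusted threshold, against 0.828% of all 15828 genes and probe sets tested (0.638% higher and 0.19% lower). At an unadjusted p under 0.05 there were 3 genes with a negative change (Lyn, Pik3cg and Pik3ap1), against 3.78% of all, and 5 with a positive change (Itpr1, Rasgrp1, Ppp3ca, Akt1 and Cd81), against 6.15%. Arrays of the groups did not overlap for 5 genes with memory below (4.5% of all tested) and 3 with memory above (6.82%). Changes below 0 numbered 23 of 38, where 47.4% of all tested were below 0, and the median change was -0.1 against 0.02. Without both naive C and memory G the first screen called 5.11% of all tested and 7 of these genes, all listed among these 8 except Akt1: Cd81, Itpr1, Ppp3ca and Rasgrp1 higher and Lyn, Pik3ap1 and Pik3cg lower.

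The receptor chains and co-receptors gave no call in either screen. Cd79a and Cd79b, the signaling chains Ig-alpha and Ig-beta, changed by -0.02 ± 0.11 (SE) and -0.07 ± 0.05 in the second screen, with 95% intervals of -0.26 to 0.23 and -0.18 to 0.04. Cd81, a tetraspanin of the co-receptor complex, read 11.88, 11.88, 11.85 and 11.77 on naive A to D and 12.06, 12.16, 11.74 and 12.0 on memory EK, FG, HJ and I. Memory HJ lay below every naive array and the other memory arrays above, with a change of 0.15 ± 0.08 (adjusted p = 0.237). First-screen arrays of Cd81 read 12.86, 13.02 and 13.37 on naive A, B and C and 13.28, 13.49, 13.47 and 13.36 on memory D to G. Naive C was level with the memory arrays, and the change of 0.32 ± 0.14 was not called (adjusted p = 0.491). Ptprc, which encodes the membrane phosphatase CD45 that keeps Src family kinases active, read 13.9, 13.98, 13.93 and 13.93 on naive and 13.81, 13.96, 13.75 and 13.82 on memory arrays of the second screen. The groups overlapped through memory FG and the change was -0.1 ± 0.05 (adjusted p = 0.191). First-screen levels of Ptprc were 14.81, 14.86 and 14.7 on naive and 14.45, 14.71, 14.69 and 14.6 on memory arrays, again overlapping, with a change of -0.18 ± 0.11 (adjusted p = 0.653). Cd79a in the first screen was split by the arrays that stood apart: naive C read 15.04 and memory G 15, the other 5 arrays 13.64 to 13.95.

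Among the tyrosine kinases Lyn and Btk were lower in memory cells of the second screen, and Blk, Fyn and Syk were not called by the probe set used for them. Lyn, a Src family kinase that both starts receptor signaling and feeds the inhibitory receptors, read 12.65, 12.61, 12.6 and 12.57 on naive A to D and 12.35, 12.37, 12.32 and 12.26 on memory EK, FG, HJ and I. No memory array reached the lowest naive array, and the fall was 1.22-fold (-0.28 ± 0.04, adjusted p = 0.00103). A second probe set of Lyn gave -0.3 ± 0.08 (adjusted p = 0.0234 over every probe set). Lyn in the first screen read 13.25, 13.44 and 13.33 on naive and 12.83, 12.91, 13.04 and 12.75 on memory arrays. These groups were also separate, with a change of -0.45 ± 0.12 that missed the threshold there (adjusted p = 0.151). It was called once naive C and memory G were left out.

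Btk, the Tec family kinase that activates Plcg2, read 11.73, 11.79, 11.72 and 11.66 on naive and 11.41, 11.5, 11.42 and 11.62 on memory arrays of the second screen. The groups lay close but apart, memory I just below naive D, and the fall was 1.18-fold (-0.24 ± 0.06, adjusted p = 0.0151). It was not called in the fit of all 15 arrays (adjusted p = 0.22). Its first-screen levels of 12.65, 12.73 and 12.36 on naive and 12.59, 12.52, 12.39 and 12.08 on memory arrays overlapped (-0.18 ± 0.16, adjusted p = 0.791). Syk, the kinase recruited to the phosphorylated receptor chains, read 13.37, 13.43, 13.34 and 13.14 on naive and 13.11, 13.28, 12.91 and 13.24 on memory arrays of the second screen, an overlap, with a change of -0.19 ± 0.09 (adjusted p = 0.163). Syk in the first screen read 14.02, 14.08 and 13.85 on naive and 13.82, 13.74, 13.93 and 13.49 on memory arrays, with a change of -0.24 ± 0.13 (adjusted p = 0.601).

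Fyn, a Src family kinase shared with T cells, differed by probe set. Its brightest in the second screen read 7.86, 7.91, 7.74 and 8.12 on naive and 8.29, 7.96, 8.25 and 8.28 on memory arrays, where memory FG fell within the naive range, and its change of 0.29 ± 0.11 was not called (adjusted p = 0.0793). The other probe set read 7.8, 7.96, 7.73 and 7.77 on naive and 8.37, 8.2, 8.05 and 8.45 on memory arrays, did not overlap, and was called higher when every probe set was tested (0.46 ± 0.1, adjusted p = 0.0113). That second probe set was the brighter in the first screen, at 8.97, 9.14 and 9.94 on naive and 9.3, 9.38, 9.39 and 10.09 on memory arrays. There the highest values were those of naive C and memory G, and the change was 0.19 ± 0.28 (adjusted p = 0.895). The part of T cells in these values was not tested. Blk, the Src family kinase found mainly in B cells, changed by 0.16 ± 0.1 in the second screen (adjusted p = 0.245) and 0.11 ± 0.13 in the first (adjusted p = 0.866).

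Of the adaptors, Pik3ap1 and Blnk were lower in memory cells of the second screen. Pik3ap1, known as BCAP, links Syk and Btk to PI3K, and its promoter is the first of those printed above. It read 12.11, 12.3, 12.1 and 12.19 on naive and 11.1, 11.4, 11.19 and 11.11 on memory arrays. Every memory array lay below every naive array, and the level in memory cells was 1.97-fold lower (-0.98 ± 0.08, adjusted p = 2.7e-05). A dimmer probe set of the gene gave -0.53 ± 0.24 without a call (adjusted p = 0.144). First-screen levels were 13.2, 13.38 and 13.06 on naive and 12.83, 12.97, 12.84 and 12.66 on memory arrays. They did not overlap either, with a change of -0.39 ± 0.12 (adjusted p = 0.291) that was called without naive C and memory G.

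Blnk, the scaffold on which Btk and Plcg2 meet, read 13.3, 13.37, 13.29 and 13.04 on naive and 12.78, 12.96, 12.77 and 13.02 on memory arrays of the second screen. Naive D and memory I all but met without overlapping, and the fall was 1.29-fold (-0.37 ± 0.09, adjusted p = 0.0121). Blnk in the first screen read 14.22, 14.22 and 14.08 on naive and 14.02, 14.09, 13.94 and 13.84 on memory arrays, with an overlap of naive C and memory E and a change of -0.2 ± 0.11 (adjusted p = 0.588). Dapp1, also called Bam32, is an adaptor that binds PI3K lipids. It read 10.11, 10.09, 10.08 and 9.68 on naive and 9.89, 9.85, 9.87 and 9.76 on memory arrays of the second screen. Naive D was below all memory arrays and the other naive arrays above them, so that the change of -0.15 ± 0.1 was not called (adjusted p = 0.304). A dimmer probe set of Dapp1, at 8.39, 8.47, 8.53 and 8.3 on naive and 8.01, 8.19, 7.93 and 8.19 on memory arrays, did not overlap and was called lower over every probe set (-0.35 ± 0.09, adjusted p = 0.0198). The brightest one read 10.52, 10.24 and 10.48 on naive and 10.61, 10.44, 10.4 and 10.41 on memory arrays of the first screen, with overlapping groups (0.05 ± 0.14, adjusted p = 0.952). Grb2 and Bank1 were not called in either screen, with changes between -0.08 and 0.02.

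Within the PI3K arm the catalytic subunit genes diverged in the second screen. Pik3cg, the gamma subunit that G protein-coupled receptors drive, read 8.99, 9.07, 8.76 and 9.09 on naive and 8.39, 8.65, 8.05 and 8.34 on memory arrays. Naive C and memory FG lay closest without overlapping, and the level was 1.54-fold lower (-0.62 ± 0.13, adjusted p = 0.0068). A dimmer probe set separated further, from 7.35 to 7.59 on naive and 6.33 to 6.57 on memory arrays (-1.04 ± 0.09, adjusted p = 5.59e-05). First-screen arrays of Pik3cg read 10.94, 10.93 and 11.19 on naive and 10.32, 10.29, 10.51 and 10.76 on memory arrays. Again no memory array reached the naive arrays, with a change of -0.55 ± 0.16 (adjusted p = 0.232) that was called without naive C and memory G.

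Pik3cd encodes the delta subunit, the main PI3K catalytic subunit of receptor signaling in B cells. It read 10.04, 10.2, 10.02 and 10.2 on naive and 10.39, 10.42, 10.24 and 10.26 on memory arrays of the second screen. All memory arrays lay above all naive arrays by a small gap, and the change of 0.21 ± 0.07 narrowly missed the threshold (adjusted p = 0.0535). The order was the opposite in the first screen, where Pik3cd read 11.12, 10.99 and 11.01 on naive and 10.88, 10.69, 10.96 and 10.87 on memory arrays, again without overlap (-0.19 ± 0.13, adjusted p = 0.714). Pik3r1, the regulatory subunit, read 7.68, 7.55, 7.93 and 8.05 on naive and 8.27, 8.05, 8.2 and 8.1 on memory arrays of the second screen. Naive D and memory FG met to the printed decimals with all memory arrays otherwise above, and the change of 0.36 ± 0.12 missed the threshold (adjusted p = 0.052). The gene's 3 other kept probe sets gave -0.04 ± 0.1, -0.04 ± 0.12 and 0.07 ± 0.1 without a call. The first and second of them were brighter than the one used but tied to the gene by common name alone. First-screen levels of Pik3r1 were 9.37, 9.36 and 10.17 on naive and 9.15, 9.08, 9.1 and 9.57 on memory arrays, where naive C and memory G were the highest of their groups (-0.41 ± 0.24, adjusted p = 0.653). Its other kept probe sets gave 0.05 ± 0.15, -0.32 ± 0.88 and -0.19 ± 0.78 there, none called. The first of these was brighter than the one used but tied to the gene by common name alone.

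Akt1, a kinase downstream of PI3K, read 10.26, 10.13 and 10.36 on naive and 10.9, 10.6, 10.4 and 10.78 on memory arrays of the first screen. The groups did not overlap, naive C and memory F lying closest, and the change of 0.42 ± 0.16 was not called (adjusted p = 0.385). In the second screen Akt1 read 9.96, 10.49, 10.1 and 10.26 on naive and 10.57, 10.54, 10.45 and 10.4 on memory arrays. Naive B fell within the memory range, and the change was 0.29 ± 0.11 (adjusted p = 0.077). Its paralog Akt2 changed by 0.0 ± 0.06 in the second screen, with a 95% interval of -0.13 to 0.13.

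**Figure D2:**
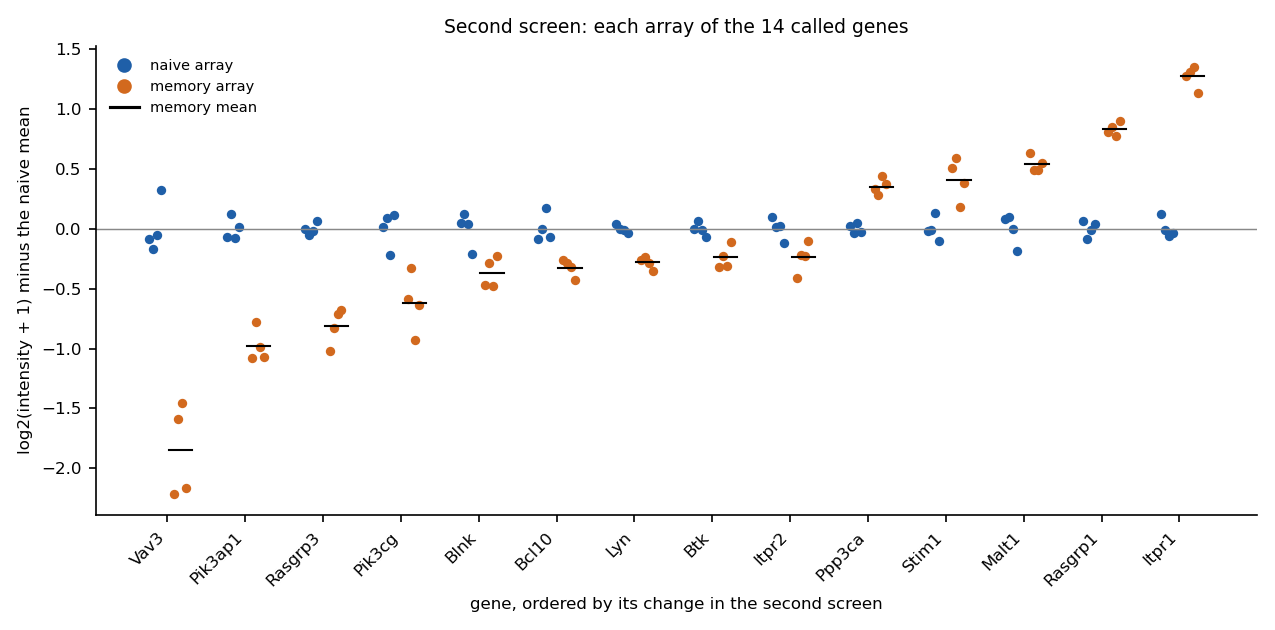
Level of the 14 genes called in the second screen on each of its 8 arrays, as log2(intensity + 1) minus the gene's naive mean; blue points are naive arrays, orange points memory arrays and the black line the memory mean. The groups are apart for all of them but Itpr2, and the 4 memory arrays of Vav3 spread the widest, from 5.17 to 5.93.

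The exchange factors held the largest fall. Vav3, a guanine nucleotide exchange factor, read 7.29, 7.21, 7.33 and 7.7 on naive and 5.17, 5.79, 5.93 and 5.22 on memory arrays of the second screen. The groups were far apart, and the level was 3.62-fold lower in memory cells (-1.86 ± 0.19, 95% interval -2.29 to -1.42, adjusted p = 0.000134). A second probe set fell from 6.39 to 6.98 on naive arrays to 4.09 to 4.59 on memory arrays (-2.28 ± 0.15, adjusted p = 1.05e-05). Its memory arrays all lay below 4.73, the median of all values of the second screen, so it was kept through its naive arrays alone. First-screen levels were 7.17, 7.69 and 7.18 on naive and 7.22, 6.19, 6.87 and 6.17 on memory arrays. Memory D lay within the naive range, memory E and G clearly below it, and the change of -0.73 ± 0.42 was not called (adjusted p = 0.644). These levels are near 6.98, the median of all values of that screen, above which a probe set had to lie to be kept. The paralogs Vav1 and Vav2 did not share the size of that fall. Vav2 read 10.88, 11.01, 10.99 and 10.95 on naive and 10.69, 10.94, 10.7 and 10.9 on memory arrays of the second screen, overlapping, with a change of -0.15 ± 0.07 (adjusted p = 0.155). First-screen levels were 11.58, 11.64 and 11.38 on naive and 11.29, 11.37, 11.18 and 11.17 on memory arrays, without overlap but with naive C and memory E all but level (-0.28 ± 0.13, adjusted p = 0.521). Vav1 changed by -0.06 ± 0.05 in the second screen and by -0.22 ± 0.2 in the first.

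The Ras exchange factors of the Rasgrp family moved in opposite directions. Rasgrp1, activated by diacylglycerol and best known from T cells, read 12.23, 12.08, 12.16 and 12.21 on naive and 12.98, 13.02, 12.94 and 13.07 on memory arrays of the second screen. Every memory array was above every naive array, and the rise was 1.78-fold (0.83 ± 0.05, adjusted p = 3.94e-06). Of its 3 other kept probe sets 2 were called higher (1.14 ± 0.1 and 0.97 ± 0.21), and the last had a change of 0.75 ± 0.31 without a call. Rasgrp1 in the first screen read 12.57, 12.52 and 12.29 on naive and 13.0, 12.91, 13.08 and 12.64 on memory arrays. The lowest memory array, G, was just above the highest naive array, with a change of 0.45 ± 0.14 (adjusted p = 0.27) that was called without naive C and memory G.

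Rasgrp3, the Ras exchange factor that protein kinase C phosphorylates in B cells, read 13.38, 13.33, 13.36 and 13.44 on naive and 12.36, 12.55, 12.67 and 12.7 on memory arrays of the second screen. The fall was 1.76-fold with no overlap (-0.81 ± 0.07, adjusted p = 6.29e-05), and the second probe set gave -0.88 ± 0.11 (adjusted p = 0.000541). The first screen gave 13.62, 13.68 and 13.22 on naive and 13.31, 13.41, 13.45 and 12.34 on memory arrays. Naive C and memory G were the lowest of their groups, and the change was -0.38 ± 0.26 (adjusted p = 0.722). Both probe sets are tied to Rasgrp3 by the common names column alone. Sos1, a Ras exchange factor bound by Grb2, and Map4k1, a kinase that restrains receptor signaling, were not called in either screen. Sos1 was read by a different brightest probe set in each screen.

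In the calcium arm the inositol trisphosphate receptor genes diverged. Itpr1, a channel that releases calcium from the endoplasmic reticulum, was the only receptor signaling gene called in both screens. It read 9.23, 9.1, 9.05 and 9.07 on naive and 10.38, 10.42, 10.46 and 10.24 on memory arrays of the second screen, and 11.23, 11.13 and 11.04 on naive and 11.94, 11.99, 11.94 and 11.78 on memory arrays of the first. All memory arrays of both screens lay above all naive arrays of theirs. The rise was 2.4-fold in the second screen (1.27 ± 0.07, adjusted p = 2.56e-06) and 1.72-fold in the first (0.78 ± 0.12, adjusted p = 0.0198). The other 2 kept probe sets were also higher in the second screen (1.16 ± 0.07 and 1.01 ± 0.17) but not called in the first, where they gave 0.55 ± 0.34 and 0.16 ± 0.42. The first-screen call was lost when arrays were centred on their medians (0.59 ± 0.25, adjusted p = 0.582), when the mean of the gene's probe sets was used (0.67 ± 0.18, adjusted p = 0.189), without the intensity trend (adjusted p = 0.0797) and when any of naive A, naive B, memory D, memory E or memory F was left out (adjusted p at most 0.114).

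Itpr2 read 10.6, 10.51, 10.52 and 10.38 on naive and 10.09, 10.28, 10.27 and 10.4 on memory arrays of the second screen. Memory I lay above naive D, and the change of -0.24 ± 0.08 was called by a narrow margin (adjusted p = 0.0437). The call was kept in 7 of 19 alternatives and lost when any of naive A, B or C or memory EK, FG or HJ was left out, and none of the gene's other 3 probe sets was called. Itpr2 in the first screen read 11.59, 11.55 and 11.44 on naive and 11.61, 11.33, 11.66 and 9.45 on memory arrays. Memory G alone was far below the others, and the change was -0.52 ± 0.47 (adjusted p = 0.81).

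Stim1, the calcium sensor of the endoplasmic reticulum, read 7.27, 7.28, 7.42 and 7.19 on naive and 7.8, 7.88, 7.47 and 7.67 on memory arrays of the second screen. The rise was 1.33-fold without overlap (0.41 ± 0.1, adjusted p = 0.0177); 2 other probe sets gave 0.13 ± 0.12 and -0.03 ± 0.14, the latter brighter but tied to the gene by common name alone, and without memory EK the adjusted p was 0.0543. The first screen was read by a different, brighter probe set, at 9.2, 8.84 and 8.89 on naive and 9.25, 9.23, 7.28 and 9.01 on memory arrays. Memory F was far below the rest, with a change of -0.29 ± 0.44 (adjusted p = 0.903). Ppp3ca, the catalytic subunit alpha of the phosphatase calcineurin, read 11.03, 10.97, 11.06 and 10.98 on naive and 11.34, 11.29, 11.45 and 11.38 on memory arrays of the second screen. The groups were apart, and the rise was 1.28-fold (0.36 ± 0.05, adjusted p = 0.000802), with all 4 other kept probe sets called higher as well (0.41 to 0.74). First-screen arrays of Ppp3ca read 10.79, 10.93 and 11.49 on naive and 11.58, 11.6, 11.33 and 11.93 on memory arrays. Only naive C overlapped the memory arrays, and the change of 0.54 ± 0.2 (adjusted p = 0.38) was called without naive C and memory G.

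Nfatc1, a transcription factor that calcineurin activates, gave different readings by probe set in the second screen. Its brightest read 11.25, 11.03, 11.15 and 11.32 on naive and 11.06, 11.14, 11.03 and 11.06 on memory arrays, overlapping, with a change of -0.12 ± 0.07 (adjusted p = 0.232). Of the other 5 kept probe sets 2 were called lower over every probe set. The first of them read 5.63, 5.5, 5.54 and 5.4 on naive and 4.99, 5.2, 5.11 and 5.24 on memory arrays (-0.38 ± 0.08, adjusted p = 0.00909), the second gave -0.63 ± 0.18 (adjusted p = 0.0345). The brightest read 11.89, 11.96 and 12.13 on naive and 12.06, 12.18, 12.04 and 12.01 on memory arrays of the first screen (0.08 ± 0.12, adjusted p = 0.892). Plcg2, the phospholipase at the head of this arm, changed by 0.01 ± 0.07 in the second screen (95% interval -0.15 to 0.17), Ppp3cb by 0.01 ± 0.06 and Nfatc2 by 0.08 ± 0.06, none of them called in either screen.

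In the protein kinase C and NF-kB arm Bcl10 and Malt1, which act in one signaling complex, moved in opposite directions in the second screen. Bcl10 read 11.22, 11.31, 11.48 and 11.24 on naive and 11.05, 11.02, 10.99 and 10.88 on memory arrays, a 1.26-fold fall without overlap (-0.33 ± 0.07, adjusted p = 0.00673). Of its 3 other kept probe sets 2 were also called lower (-0.26 ± 0.06 and -0.43 ± 0.11). Malt1, the paracaspase of the complex, read 11.52, 11.54, 11.44 and 11.25 on naive and 12.07, 11.93, 11.93 and 11.99 on memory arrays. Every memory array was above every naive array, a 1.46-fold rise (0.54 ± 0.07, adjusted p = 0.000486), and 1 of 2 other probe sets was called higher (0.69 ± 0.19). The first screen called neither. Bcl10 read 12.14, 12.0 and 12.47 on naive and 12.11, 12.08, 11.88 and 11.81 on memory arrays there (-0.23 ± 0.15, adjusted p = 0.701), and Malt1 read 11.66, 11.51 and 10.92 on naive and 11.7, 11.73, 11.51 and 11.45 on memory arrays (0.23 ± 0.19, adjusted p = 0.771). Naive C was the highest naive array for Bcl10 and the lowest for Malt1.

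Prkcb, the protein kinase C isoform that links the receptor to NF-kB in B cells, read 12.95, 12.89, 12.92 and 12.89 on naive and 12.9, 13.0, 12.89 and 13.01 on memory arrays of the second screen, with overlapping groups and a change of 0.04 ± 0.04 (adjusted p = 0.55). A dimmer probe set was called higher over every probe set by a narrow margin, at 12.25, 12.16, 12.23 and 12.24 on naive and 12.36, 12.54, 12.29 and 12.43 on memory arrays (0.18 ± 0.06, adjusted p = 0.0492). The brightest one in the first screen read 13.77, 13.74 and 13.45 on naive and 13.86, 13.85, 13.9 and 13.54 on memory arrays (0.13 ± 0.13, adjusted p = 0.833). Prkcd, another isoform, was not called in either screen.

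**Figure D3:**
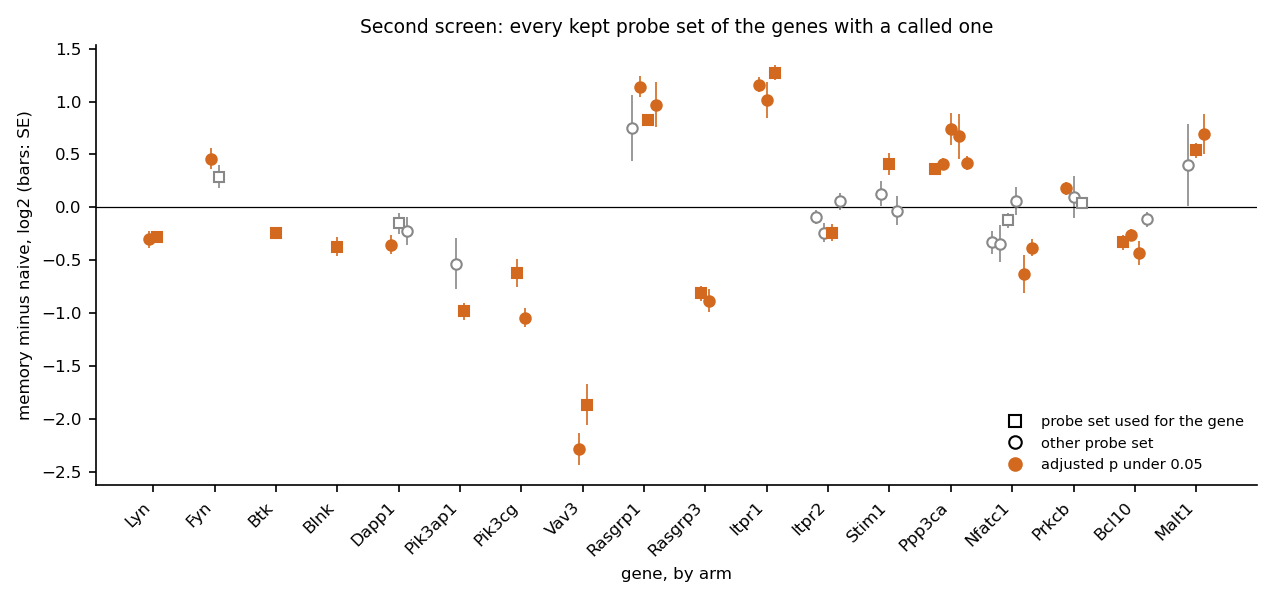
Change of every kept probe set of the 18 genes with at least 1 called probe set in the second screen, with its standard error; squares are the probe set used for the gene, circles the others, and filled symbols have an adjusted p under 0.05 over all probe sets. No gene has called probe sets on both sides of 0.

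Tested one by one, 34 of the 95 kept probe sets of these genes were called in the second screen, 18 lower and 16 higher, where 24% of all 22638 kept probe sets were called. They belonged to 18 genes, none of which had calls in both directions. Fyn, Dapp1, Nfatc1 and Prkcb were added to the 14 in this way. Of 94 kept in the first screen, 1 was called, where 0.491% of all 23813 kept probe sets were.

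Paralogs were also compared within each array, as the change of the log2 ratio of one gene to the other, which does not depend on the scaling of the array. For 13 pairs an exact two-sided permutation test over the 8 arrays of the second screen was run, adjusted over the pairs, whose smallest possible p is 0.0286. It reached that smallest value, adjusted to 0.0413, for 9 pairs. All of them but Nfatc1 and Nfatc2 hold a gene already called on the same arrays, so the ratios are no separate support for those calls. How often other gene pairs reach this value was not tested. The ratio of Vav1 to Vav3 was higher in memory cells by 1.79, that of Vav2 to Vav3 by 1.71, that of Rasgrp1 to Rasgrp3 by 1.65 and that of Itpr1 to Itpr2 by 1.51, each on all memory arrays. Pik3cd over Pik3cg was higher by 0.83 and Ppp3ca over Ppp3cb by 0.35. The changes of the ratio were negative for Lyn over Fyn at -0.57, Lyn over Blk at -0.45 and Nfatc1 over Nfatc2 at -0.2. The remaining 4 pairs, Blk and Fyn, Vav1 and Vav2, Akt1 and Akt2, and Prkcb and Prkcd, gave adjusted p from 0.111 to 0.914. Over the 7 arrays of the first screen the smallest p was also 0.0286 and no pair passed after adjustment (0.186 at the lowest). There the change of the ratio was -0.57 for Lyn over Blk, 0.83 for Rasgrp1 over Rasgrp3 and 1.3 for Itpr1 over Itpr2, each without overlap of the groups.

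**Figure D4:**
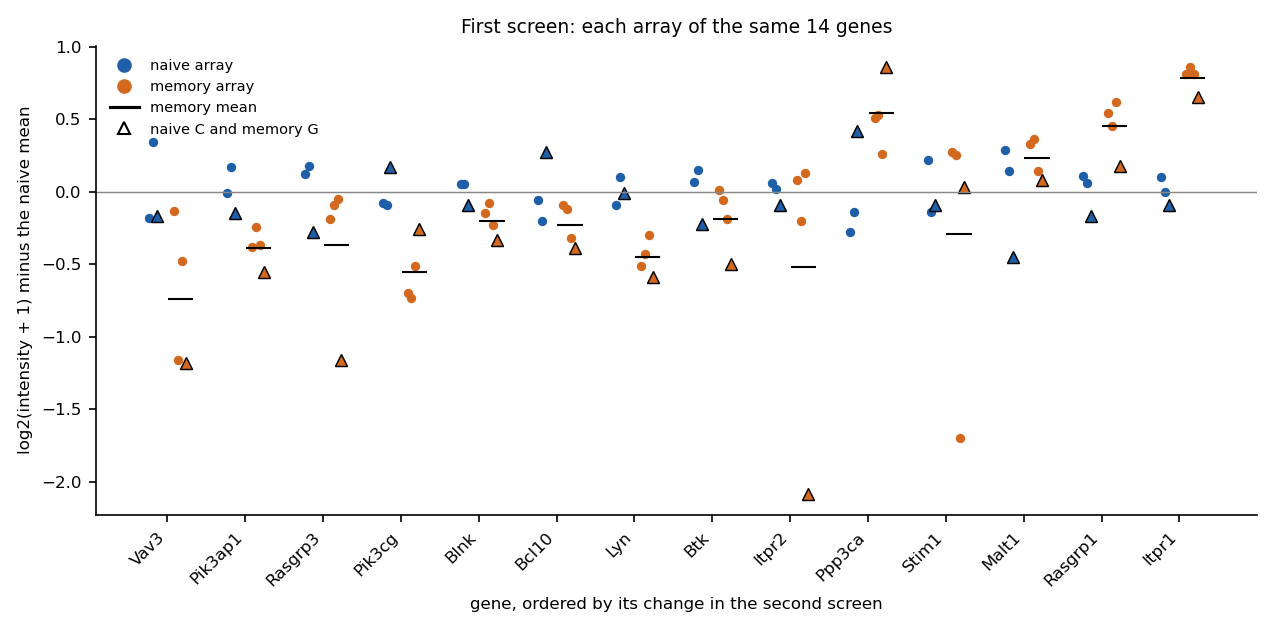
Level of the same 14 genes on the 7 arrays of the first screen, as log2(intensity + 1) minus the naive mean, in the order of the second screen; triangles mark naive C and memory G, circles the other arrays, and the black line is the memory mean. Memory G of Itpr2 at 9.45 and memory F of Stim1 at 7.28 lie far below the others of their group, and the memory arrays of Lyn, Pik3ap1, Pik3cg, Rasgrp1 and Itpr1 are clear of the naive arrays.

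The screens share no arrays, so the changes can be set side by side. Of 37 genes measured by the same probe set in both, 27 had changes of the same sign (73%), where 65.1% of all 12933 genes and probe sets did. The changes correlated at 0.78 (Pearson) and 0.75 (Spearman) over the 37 genes, and at 0.58 and 0.45 over all; the points are genes, which share arrays and are not replicates. Of the 14 called in the second screen 13 kept their sign in the first (92.9%, where 82% of all genes called in the second screen did), Stim1 being the exception. Stim1 was compared by a probe set not called in the second screen, with changes of -0.29 (first) and 0.13 (second). Its first-screen change was positive once memory F was left out. The Stim1 probe set called in the second screen gave -0.03 ± 0.54 in the first. Tested as a contrast over all 15 arrays, none of the 37 genes differed between the screens after adjustment, where 1.36% of all tested did (0.564% with a higher and 0.796% with a lower change in the second). At an unadjusted p under 0.05 there were 6 of 37, against 12.5% of all. Closest were Pik3ap1, whose change in the second screen minus that in the first was -0.59 ± 0.14 (adjusted p = 0.0522), and Itpr1, at 0.48 ± 0.12 (adjusted p = 0.0637). Pik3cd, with memory arrays wholly below naive ones in the first screen and wholly above them in the second, gave 0.4 ± 0.12 (adjusted p = 0.151). The difference of 2 separate fits called none as well. The contrast also holds the differences in mice, sorter and labeling kit between the screens, and any in summarization. Without both naive C and memory G it called 9.85% of all tested and 6 of these genes: Itpr1, Rasgrp1, Malt1 and Pik3r1 with a higher and Pik3ap1 and Rasgrp3 with a lower change in the second screen. For Pik3r1 this is the probe set used above, not the brighter one tied to the gene by common name alone. Without naive C alone the contrast called Itpr1 and Malt1 (4.09% of all), without memory G alone Itpr1, Pik3ap1 and Rasgrp3 (3.06% of all), and without naive B (0.801%) or memory FG (0.849%) Pik3ap1.

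**Figure D5:**
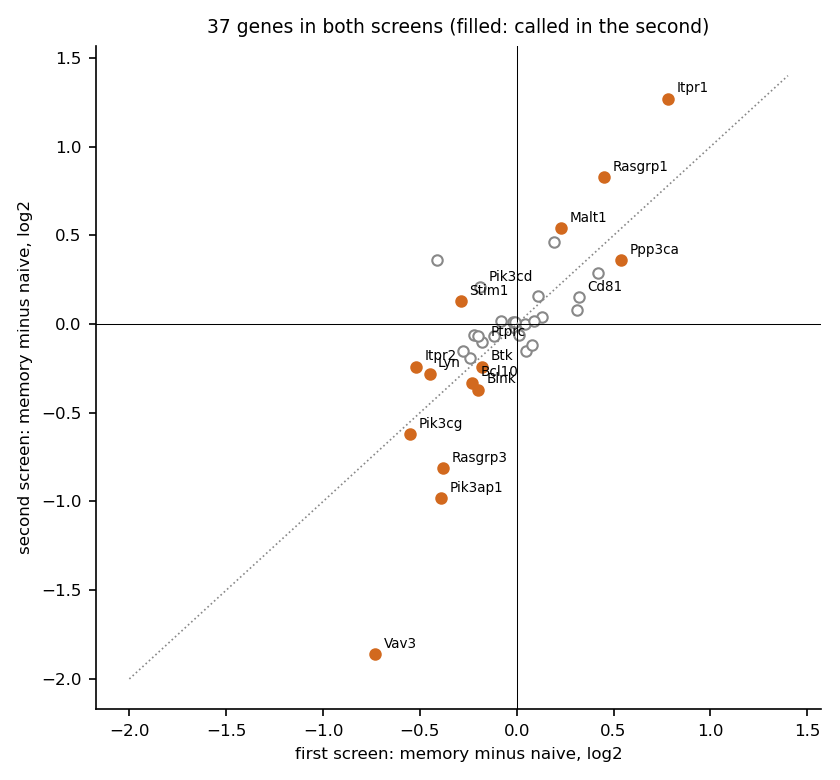
Change of 37 genes in the first screen (horizontal) against the second (vertical), log2 memory minus naive for a probe set kept in both; filled points were called in the second screen and the dotted line marks equal changes. Vav3, Pik3ap1, Rasgrp3, Rasgrp1 and Itpr1 lie farther from 0 in the second screen, and Stim1 is drawn with a probe set other than the one called.

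A companion list of 66 further genes of the pathway was read in the same way. Of these, 63 had a probe set under their symbol and 62 passed the filter in each screen. In the second screen 12 were higher and 9 lower in memory cells, where 10.5% of all tested were higher and 16% lower. Their median change was -0.02, equal to that of all tested. Among those with the smallest p were Prkca, Rel, Cblb, Stap1 and Cr2. Prkca, a protein kinase C isoform, read 8.11, 7.86, 7.74 and 8.06 on naive and 8.99, 9.01, 9.06 and 9.02 on memory arrays (1.08 ± 0.09, adjusted p = 3.74e-05). Rel, the NF-kB subunit c-Rel, read 7.55, 7.51, 7.79 and 7.7 on naive and 6.3, 6.68, 6.39 and 6.54 on memory arrays (-1.16 ± 0.11, adjusted p = 6.68e-05). Lower as well were Cblb, a ubiquitin ligase that restrains receptor signaling (-0.72 ± 0.08), Stap1, an adaptor of Tec kinases (-0.6 ± 0.07), and Cr2, complement receptor CD21 of the co-receptor complex (-0.54 ± 0.06). In the first screen none of the 62 was called, where 0.828% of all tested were, and the median change was 0.01. An unadjusted p under 0.05 was found for 1 gene in each direction, against 6.15% (higher) and 3.78% (lower) of all tested. The smallest p values there were those of Cblb, with memory arrays wholly below naive ones (-0.42 ± 0.13, adjusted p = 0.254), and Pik3r2, a PI3K regulatory subunit, with memory arrays wholly above (0.36 ± 0.15, adjusted p = 0.464).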

How the data were processed

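RNA of sorted mouse splenic B cells was measured on 15 Affymetrix arrays in 2 screens. The authors deposited a linear intensity for each probe set and array; those of the second screen came from GCRMA, per the submitters' processing notes, and no source used here names the software behind the first. Deposited group means of the second screen equal the mean of its arrays and were used only for that check. No array was dropped, and precision is limited by the number of arrays. The values were taken as log2(intensity + 1) of the deposited intensity. Dim probe sets were left out: at least 3 arrays (first screen) or 4 (second) had to exceed the screen's overall median, which left 23813 and 22638. The brightest kept probe set under a gene's symbol or older symbol stood for the gene, and a probe set without a symbol for itself. Probe sets tied to a member by common name alone were used only for Rasgrp3, so brighter ones of Pik3r1 (both screens) and Stim1 (second) were passed over. Each screen was fitted on its own with limma 3.58.1 in R 4.3.3 (lmFit, eBayes with an intensity trend), with Benjamini-Hochberg adjustment over all genes tested and a threshold of 0.05. The difference between screens was a contrast in one fit of 4 groups, which share one spread although that of the first screen is larger. The fits were also run on simulated data, in which the noise of each probe set and array was drawn independently. Such data lack the shared departure of naive C and memory G and could not test its effect. Errors are standard errors unless stated. p-values measure the spread between these samples, and nothing in the labels says how many mice gave each.

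The members, gene lists and tests were chosen with earlier results of these data known. Values on every array are given for genes called by any probe set and for a set of 6 others (Cd81, Ptprc, Syk, Akt1, Pik3r1 and Vav2); the companion genes named are the 6 with the smallest p among those called (1 of which is not reported here), or the first in each direction where none was. Marker lists covered B, T, NK, myeloid, dendritic, plasma and erythroid cells. Alternatives changed the filter, scaling, pseudocount, choice of probe set, variance estimate, array weights and arrays in the fit.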

Additional observations from a re-analysis of the deposited data

Results flagged for a closer look

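In 12 of 114 groups of 4 arrays, 1 array lay far from the other 3 by Dixon's 95% criterion; chance flags about 1 group in 20. Of these, 7 fall on memory array G of the first screen, 4 high and 3 low. Its high values were Cd79a at 15 (the others 13.78 to 13.95), Fyn at 10.09 (9.3 to 9.39), Pik3r1 at 9.57 (9.08 to 9.15) and Prkcd at 11.99 (11.33 to 11.35). Its low values were Rasgrp3 at 12.34 (13.31 to 13.45), Itpr2 at 9.45 (11.33 to 11.66) and Prkcb at 13.54 (13.85 to 13.9). In the same group memory D was low for Cd79b at 14.94 (15.15 to 15.18) and memory F for Stim1 at 7.28 (9.01 to 9.25). In the second screen naive A was high for Bank1 at 13.4 (13.32 to 13.33), naive D low for Dapp1 at 9.68 (10.08 to 10.11) and memory FG low for Fyn at 7.96 (8.25 to 8.29). The naive group of the first screen has 3 arrays and was not examined in this way.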

How the results depend on the processing

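In the second screen 8 of the 14 called genes (Lyn, Blnk, Pik3ap1, Pik3cg, Vav3, Rasgrp1, Rasgrp3 and Itpr1) were called under every alternative in which they were tested, and none of the 14 changed sign. The fit of all 15 arrays called 9 of the 38 (12.4% of all tested), losing Btk, Bcl10, Ppp3ca, Stim1 and Itpr2. Leaving out 1 array at a time gave 12 to 18, where 20.3% to 28.6% of all tested were called. Malt1 was lost when probe sets were averaged (adjusted p = 0.0753).

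In the first screen the single call, Itpr1, was lost (0 called) with median centring, with averaged probe sets and with eBayes without trend. These fits called 0.409%, 0.708% and 0.569% of all tested. Leaving out 1 array gave 0 to 1, where 0.37% to 0.985% of all tested were called. Array weights and the fit without both naive C and memory G called 7 each (5.71% and 5.11% of all tested, against 0.828%), and the fit of all 15 arrays and that with C and G as 1 block called 6 each (6.51% and 4.47% of all). Median centring moved the median change of all genes from 0.02 to -0.18 and that of the 38 from -0.1 to -0.29.

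For the difference between screens, quantile normalization called 2 (Itpr1 and Pik3ap1; 1.16% of all), array weights 4 (these, Pik3cd and Rasgrp1; 7.48% of all) and the fit without both C and G 6 (9.85% of all). Leaving out 1 array gave 0 to 3, where 0.586% to 4.09% of all tested were called. Median centring moved the median difference of all genes from -0.05 to 0.13. The cause of these changes was not tested. No paired analysis was possible because replicate letters are shared only between screens, never between the naive and memory groups of a screen. Averaging probe sets left out Rasgrp3, which has no symbol.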
